A study of Mus musculus with 6 samples.

Results

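The genes described here are 9 alpha and beta tubulin isotypes, namely the beta genes Tubb4b, Tubb5, Tubb2a and Tubb6 and the alpha genes Tuba4a, Tuba1a, Tuba1b, Tuba1c and Tuba8. They were selected on an earlier result of these data, the difference in estimated counts and TPM between knockout and control livers, and found by symbol. All 9 were among the 16140 genes of the table. Livers of Selofl/fl Alb-Cre mice, in which Cre under the albumin promoter acts on floxed alleles of Selenoo in hepatocytes, were compared with livers of Selofl/fl mice without Cre. Selenoo encodes the mitochondrial selenoprotein SelO, and all mice were on a normal diet. Bulk poly(A) RNA was sequenced in 3 liver samples of each genotype. Effects of Cre and of Selenoo loss cannot be told apart in this design. The sources used here give no age, sex or strain. Whether the libraries of a group came from separate mice is not stated, so p-values and errors measure the spread between these samples, which may be technical.

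Microtubules are hollow polymers of alpha and beta tubulin dimers, and each subunit is encoded by several genes whose products differ mostly in their C-terminal tails. In hepatocytes, microtubules carry secretory vesicles with plasma proteins and lipoproteins towards the cell surface. Newly made tubulin passes through prefoldin, the chaperonin CCT and the tubulin folding cofactors before it forms dimers. Cells also control tubulin mRNA by the amount of free tubulin: TTC5 binds the first residues of tubulin as it leaves the ribosome and leads to decay of that mRNA.

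Total estimated counts, reads assigned to genes by a model that divides ambiguous reads, were between 15550289 and 18680195 per library. Selenoo fell from 91.7 ± 6.50 to 7.76 ± 1.52 CPM (estimated counts as a rate of the library total, scaled to library size with TMM factors; SD, n = 3). The log2 fold change was -3.56 ± 0.17 (SE; edgeR quasi-likelihood adjusted p 4.64e-05). Summed hepatocyte markers were between 131400 and 160600 TPM (a length-corrected rate of the library total) in every library, most of it Alb. Of 7 hepatocyte markers tested, Serpina1a was called higher in knockouts (log2 fold change 0.94 ± 0.15, SE; edgeR's adjusted p 0.0198) and the others were not called. The summed T, NK and B cell markers were lower in knockouts (3.93 to 9.34 TPM) than in controls (10.5 to 23.9 TPM). The log2 CPM of a gene in each library, taken relative to its mean over the 6 libraries, was compared with the length of its transcript. By Spearman's rho, this deviation tracked length at -0.29 (control replicate 1), -0.22 (control replicate 2) and 0.27 (control replicate 3). For the knockouts, replicates 1, 2 and 3 had 0.27, 0.085 and 0.088. The deviations of a gene cancel out over the libraries, so opposite signs are partly forced by this centring. Control replicate 1 also stood apart in several tubulin genes, as given below.

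The 9 genes lie at 7 places of the mouse genome (GRCm38). Tuba1b (chr15:98931429-98934390, minus strand), Tuba1a (chr15:98949847-98953501, minus strand) and Tuba1c (chr15:99029891-99038105, plus strand) form a cluster of 106.7 kb. The others stand alone: Tuba4a at chr1:75214972-75221261, Tubb4b at chr2:25222158-25224702, Tubb2a at chr13:34074278-34078008 and Tubb5 at chr17:35833920-35838301 on the minus strand, Tuba8 at chr6:121210734-121226098 on the plus strand, and Tubb6, whose place is given with its values.

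Coding sequences were 1335 to 1356 bases long. The first 30 coding bases of 8 genes, read 5′ to 3′ from the spliced GENCODE M21 transcripts, are shown because their first 4 codons, in capitals, encode the residues that TTC5 reads:
Tubb4b: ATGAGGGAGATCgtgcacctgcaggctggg
Tubb5: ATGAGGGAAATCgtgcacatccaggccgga
Tubb2a: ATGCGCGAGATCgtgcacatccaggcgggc
Tuba4a: ATGCGCGAGTGCatttcagtccatgtgggg
Tuba1a: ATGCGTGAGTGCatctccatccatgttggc
Tuba1b: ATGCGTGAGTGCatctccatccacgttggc
Tuba1c: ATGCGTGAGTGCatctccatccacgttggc
Tuba8: ATGAGGGAATGCatatcggtccatgtgggt
The 3 genes of the chromosome 15 cluster had the same first 12 bases, and the other 5 genes shown each had their own.

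The cluster genes were also close copies over their whole coding sequence, with 98.3% identity between Tuba1a and Tuba1b, 97.9% between Tuba1b and Tuba1c and 97.1% between Tuba1a and Tuba1c. Identity among the other alpha pairs was 78.8% to 85.2%, and among the beta pairs 80.2% to 84.5%. Of all 100-base windows of the transcript, 53.4% for Tuba1c, 52.3% for Tuba1b, 38.4% for Tuba1a and 35.9% for Tubb2a also occurred exactly in another tubulin transcript. No window of the other 5 genes did. The same 4 genes had estimated counts that were not whole (by over 0.01) in 5 or 6 of the 6 libraries, and the other 5 had whole counts in all 6. Values of the cluster genes one by one, and of Tubb2a, therefore rest on how reads were divided among near copies. Summed in counts or CPM, the cluster does not depend on the division among its members. Its TPM sum does to some extent, since the transcripts differ in length.

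The beta genes were led by Tubb4b, a class IV isotype found in most tissues and in cilia. Its level was 99.9, 132 and 117 TPM in control libraries, against 42.7, 45.7 and 44.7 TPM in the knockouts. Every knockout library was below every control. In bulk RNA, fewer cells of a type and less RNA per cell cannot be told apart. The log2 fold change of Tubb4b was -1.40 ± 0.13 (SE), a level 2.64-fold lower. Levels in TPM are per transcript length, whereas fold changes were fitted to counts of all 12173 genes tested.

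Tubb2a, a class II isotype best known from neurons, had 66.0, 63.7 and 55.9 TPM in control libraries, against 32.2, 25.2 and 35.1 TPM in the knockouts. Control replicate 1 was here the highest library, and the groups did not overlap. The log2 fold change of Tubb2a was -1.05 ± 0.19 (SE). Tubb5, the widely expressed class I isotype, had 30.9, 54.5 and 51.2 TPM in control libraries, against 24.2, 22.4 and 21.2 TPM in the knockouts. Control replicate 1 lay between the other controls and the knockouts, without overlap. Its log2 fold change was -1.004 ± 0.15 (SE). Tubb6, a class V isotype at chr18:67390731-67402749 on the plus strand, was the least abundant, at 3.70, 5.08 and 3.65 TPM in control libraries, against 3.04, 2.69 and 2.80 TPM in the knockouts. The groups were apart by less than the range of the controls, and the log2 fold change was -0.56 ± 0.19 (SE; edgeR's adjusted p 0.174).

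Among the alpha genes Tuba4a, whose product is made without the C-terminal tyrosine of most alpha tubulins, was the most abundant. It had 98.7, 130 and 109 TPM in control libraries, against 50.8, 42.6 and 51.8 TPM in the knockouts. The groups were clearly separated, and the log2 fold change was -1.23 ± 0.15 (SE), or 2.34-fold lower. Tuba1c, a widely expressed isotype, had 41.6, 75.5 and 76.7 TPM in control libraries, against 22.8, 20.8 and 25.9 TPM in the knockouts. Its log2 fold change of -1.46 ± 0.18 (SE), or 2.76-fold lower, was the most negative of the 9.

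Tuba1b, another widely expressed alpha isotype, had 43.7, 79.61 and 80.04 TPM in control libraries, against 42.0, 40.1 and 43.2 TPM in the knockouts. Control replicate 1 sat just above the knockouts, and in unscaled counts the groups overlapped, with 821 in that library and 828 in knockout replicate 3. The log2 fold change of Tuba1b was -0.69 ± 0.16 (SE; edgeR's adjusted p 0.072). Without control replicate 1 it was -0.84 ± 0.11 (SE; edgeR's adjusted p 0.0109). Summed over the cluster, Tuba1a, Tuba1b and Tuba1c had 89.5, 162 and 163 TPM in control libraries, against 69.8, 66.2 and 74.1 TPM in the knockouts. The cluster sum was thus lower in every knockout library, at 50.7% of the control mean in TPM and 49.3% in CPM.

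Tuba1a, the main alpha isotype of developing neurons, had 4.22, 7.20 and 6 TPM in control libraries, against 4.99, 5.34 and 4.99 TPM in the knockouts. Tuba8, a divergent alpha isotype, had 5.33, 5.24 and 6.27 TPM in control libraries, against 6.81, 4.44 and 2.98 TPM in the knockouts. In both genes the groups overlapped. For Tuba1a the log2 fold change was -0.19 ± 0.17 (SE) and the adjusted p 0.578 in edgeR's test, and for Tuba8 they were -0.28 ± 0.26 (SE) and 0.579. Relative to its level Tuba8 was the most variable member among the knockouts, where replicate 1 was above every control and replicates 2 and 3 below every control.

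**Figure D1:**
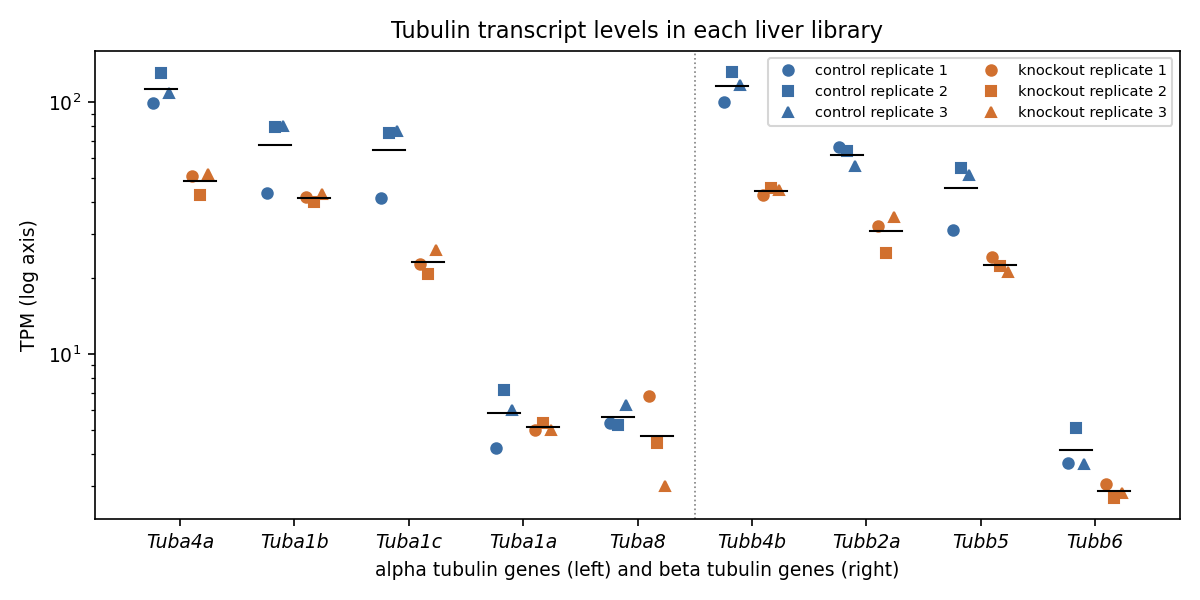
Level of each tubulin gene in TPM (log axis) in the 3 control and 3 knockout libraries, with a black line at each group's mean. The 6 abundant genes were lower in the knockouts, with control replicate 1 of Tuba1b just above them, and the groups overlapped for Tuba1a and Tuba8.

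Since these 9 genes were picked with this contrast known, the calls describe them and are no independent evidence. All 9 passed the filter on low counts, and 5 of 9 (Tubb4b, Tubb5, Tubb2a, Tuba4a and Tuba1c) had an adjusted p under 0.05 in edgeR's quasi-likelihood test, all lower. Over all genes tested 0.715% were called lower. Adjusted p in edgeR's test was 0.00435 for Tubb4b, 0.00837 for Tuba4a, 0.0084 for Tuba1c, 0.0153 for Tubb5 and 0.0333 for Tubb2a. In CPM 7 of 9 members had knockouts below all controls, as had 11.9% of all genes. The median log2 fold change was -1.004 for the 9 genes and -0.018 for all genes tested. Of the 9 genes 6 in the authors' deposited table had a q value under 0.05, all lower, where 1.44% of all genes were. DESeq2 run here also called 6, all lower, where it called 2.18% of all genes lower, and a fit with the replicate number as a block called 3, where it called 0.37% lower. The authors' deposited table adds Tuba1b, with a q of 0.00872.

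Single libraries decided some of these calls. Tubb4b and Tuba1c kept an adjusted p under 0.05 whichever library was left out, with up to 0.0293 and 0.0469 in edgeR's test. Tuba4a reached 0.0507 without knockout replicate 2. Tubb5 lost its call when control replicate 2 was left out (edgeR's adjusted p 0.0509), and when any 1 knockout library was (0.0779, 0.0933 and 0.087 for replicates 1, 2 and 3). Tubb2a lost it in the same 4 fits, at 0.0877, 0.139, 0.171 and 0.0773. Leaving out control replicates 1, 2 and 3 in turn gave 6, 3 and 5 called members, and leaving out knockout replicates 1, 2 and 3 gave 3, 2 and 3. The shares of all genes called lower in the same fits were 1.52%, 0.35% and 2.12% (a control missing) and 0.21%, 0.194% and 0.226% (a knockout missing). After removal of length and GC trends library by library, 5 members were called and 1.00% of all genes were called lower. The log2 fold changes of those 5 were between -1.39 ± 0.17 (SE) for Tuba1c and -0.95 ± 0.17 (SE) for Tubb2a.

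**Figure D2:**
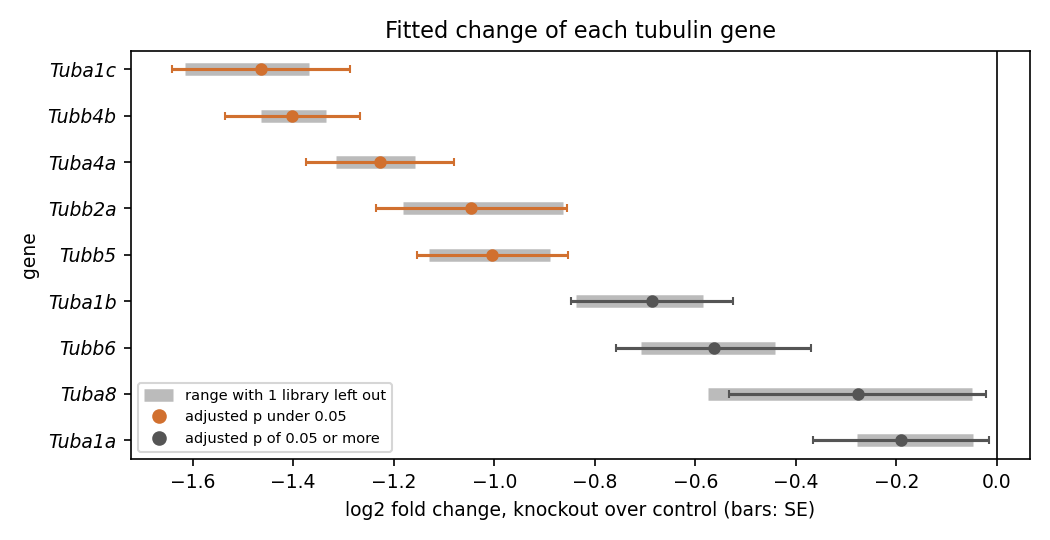
Fitted log2 fold change of each tubulin gene, knockout over control, with its SE as bars, and as a grey band its range when 1 library is left out. Tuba1c, Tubb4b and Tuba4a lie lowest, and Tuba8 and Tuba1a have ranges that come within 0.05 of 0.

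In the controls the levels ran from Tubb4b (116 ± 15.9 TPM, SD, n = 3) and Tuba4a (112 ± 16.0) through Tuba1b (67.8 ± 20.9), Tuba1c (64.6 ± 19.9), Tubb2a (61.9 ± 5.30) and Tubb5 (45.5 ± 12.8) to Tuba1a (5.81 ± 1.499), Tuba8 (5.61 ± 0.57) and Tubb6 (4.14 ± 0.81). Library ranges overlapped between Tubb4b and Tuba4a, among Tuba1b, Tuba1c and Tubb2a, and between Tuba1a and Tuba8. The range of Tubb5 also overlapped those of Tuba1b and Tuba1c, and the range of Tubb6 that of Tuba1a. Within each control library, Tubb5 was below Tuba1b and Tuba1c, and Tubb6 below Tuba1a. Compared within each control library, however, Tubb4b was above Tuba4a and Tuba1b above Tuba1c in all 3, whereas the order of Tuba1c and Tubb2a and that of Tuba1a and Tuba8 differed between libraries. In the knockouts the order was Tuba4a (48.4 ± 5.02 TPM, SD, n = 3), Tubb4b (44.4 ± 1.53), Tuba1b (41.8 ± 1.56), Tubb2a (30.8 ± 5.09), Tuba1c (23.2 ± 2.61), Tubb5 (22.6 ± 1.496), Tuba1a (5.11 ± 0.20), Tuba8 (4.74 ± 1.93) and Tubb6 (2.84 ± 0.18). Ranges there overlapped between each gene and the next, except from Tuba1b to Tubb2a and from Tubb5 to Tuba1a. Within each knockout library Tubb4b was above Tuba1b, Tubb2a above Tuba1c and Tuba8 above Tubb6 in all 3, and the order of the other overlapping neighbours differed between libraries. In TPM, Tuba1b and Tuba1c, near equal in the controls, were apart in every knockout library. In CPM, which is not per length, Tuba1c was above Tuba1b in every control library and below it in every knockout library. Both genes rest on the division of reads among near copies.

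The alpha and beta sums were lower by similar amounts. The 5 alpha genes together had 194, 298 and 278 TPM in control libraries, against 127, 113 and 129 TPM in knockout libraries, so that 48.1% of the control mean was left. The 4 beta genes together had 201, 255 and 228 TPM in control libraries, against 102, 95.9 and 104 TPM in the knockouts, or 44.2% of the control mean. Both sums were lower in every knockout library than in any control. The sums describe genes chosen for this contrast and carry no test. Alpha transcripts were 52.6% ± 3.10 of all alpha and beta transcripts in control libraries, against 55.0% ± 0.77 in the knockouts (SD, n = 3), with overlapping groups.

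Within the sums, some genes held different shares in the 2 groups, again as a description. A gene that was less reduced than the sum takes a larger share, so a larger share does not mean a higher level. Of the alpha sum, Tuba1b was 22.6%, 26.8% and 28.8% in control libraries, against 33.0%, 35.4% and 33.5% in the knockouts, without overlap. Tuba1c was 21.5%, 25.4% and 27.6% of the alpha sum in control libraries, against 17.9%, 18.3% and 20.1% in the knockouts, also without overlap. The share of Tuba1a was 2.25% ± 0.14 in control libraries, against 4.17% ± 0.47 in the knockouts (SD, n = 3), higher in all 3 knockout libraries. The shares of the cluster genes rest on the division of reads among near copies. Tuba4a (44.6% ± 5.998 against 39.2% ± 1.38) and Tuba8 (2.26% ± 0.50 against 3.86% ± 1.52) had overlapping shares.

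Of the beta sum, Tubb4b was 49.8%, 51.6% and 51.4% in control libraries, against 41.8%, 47.6% and 43.1% in the knockouts, so its share was lower in every knockout library. The share of Tubb6 was higher, at 1.81% ± 0.20 in control libraries, against 2.83% ± 0.14 in the knockouts (SD, n = 3). Those of Tubb5 (19.8% ± 3.79 against 22.5% ± 1.78) and Tubb2a (27.5% ± 4.71 against 30.5% ± 3.88) overlapped. Tubb4b remained the most abundant beta transcript in all 6 libraries.

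**Figure D3:**
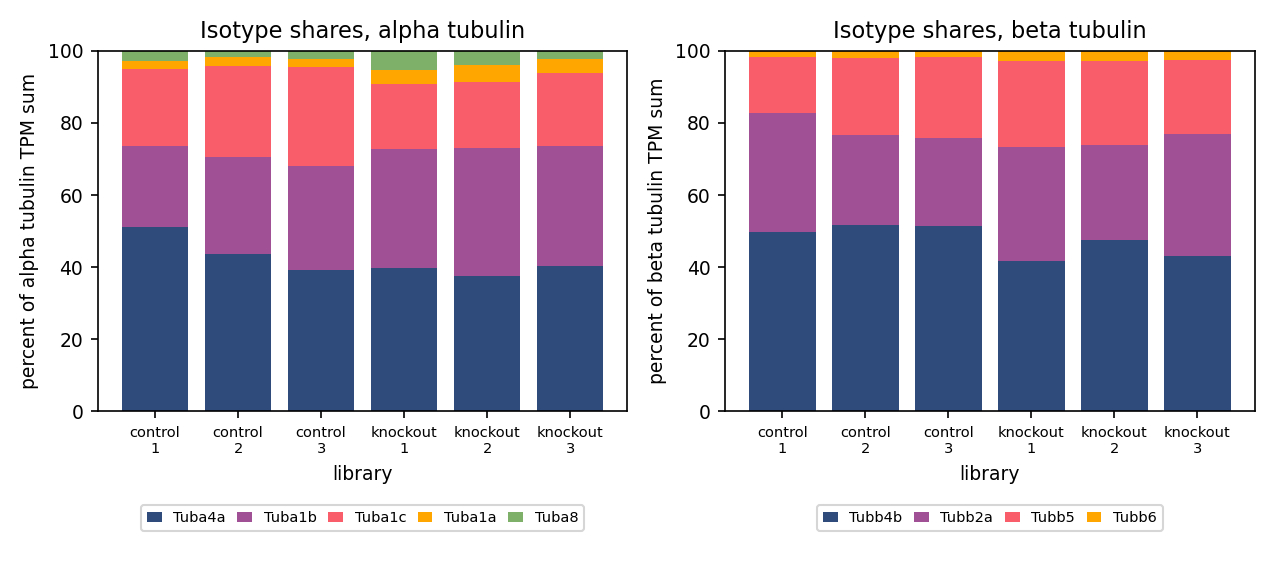
Percent of the alpha (left) and beta (right) tubulin TPM sum held by each gene in each library, as stacked bars. Tuba1b takes a larger and Tuba1c and Tubb4b a smaller part in the knockouts, and control replicate 1 has the largest Tuba4a part.

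Around their group means, the genes varied in different ways from library to library. Over the 6 libraries, deviations of log2 CPM from the group mean correlated at r = 0.954 between Tuba1b and Tuba1c, 0.893 between Tuba1b and Tubb5 and 0.743 between Tuba1c and Tubb5. In control replicate 1 these 3 genes were 0.34, 0.35 and 0.28 below the control mean (log2), while Tubb2a was 0.33 above it. Deviations of Tuba4a correlated with those of Tubb6 (r = 0.829) and Tubb2a (r = 0.792), and hardly with those of Tuba1b (r = -0.011). These are descriptions over 6 libraries that share their scaling, and Tuba1b and Tuba1c also share reads.

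**Figure D4:**
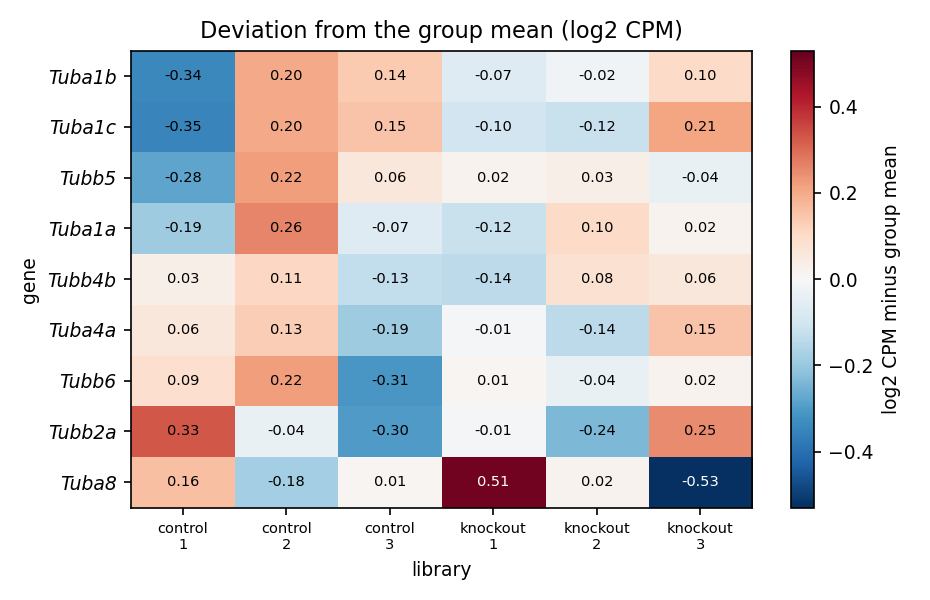
Deviation of each tubulin gene's log2 CPM from its group mean in each library, as a colour and a number. Tuba1b, Tuba1c and Tubb5 are lowest in control replicate 1, Tubb2a is highest there, and Tuba8 spans the widest range, from 0.51 to -0.53, in the knockouts.

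The 250 bases before a RefSeq transcript start (GRCm38) were found for 8 of the 9 genes. For 7 of them this start is the end of the gene interval given above, whereas for Tuba4a it is the start of a shorter transcript and lies inside the interval. They are shown for the 3 genes with the most negative fold changes and for Tuba8, whose groups overlapped, from chr15:99029641-99029890 (plus strand) for Tuba1c, chr2:25224703-25224952 (minus strand) for Tubb4b, chr1:75219295-75219544 (minus strand) for Tuba4a and chr6:121210484-121210733 (plus strand) for Tuba8. They read 5′ to 3′ towards the start, with CCAAT (the CCAAT box) and GGGCGG (the GC box) on either strand in capitals:
Tubb4b: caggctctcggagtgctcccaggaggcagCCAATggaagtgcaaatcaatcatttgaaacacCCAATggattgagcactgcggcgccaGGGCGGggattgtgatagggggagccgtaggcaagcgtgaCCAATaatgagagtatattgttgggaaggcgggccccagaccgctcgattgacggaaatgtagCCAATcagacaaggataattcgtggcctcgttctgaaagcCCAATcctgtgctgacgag
Tuba1c: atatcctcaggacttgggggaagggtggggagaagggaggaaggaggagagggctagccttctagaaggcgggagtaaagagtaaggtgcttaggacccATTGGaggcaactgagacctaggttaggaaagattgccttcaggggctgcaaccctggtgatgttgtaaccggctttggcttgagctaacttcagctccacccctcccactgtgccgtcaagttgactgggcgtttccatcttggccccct
Tuba4a: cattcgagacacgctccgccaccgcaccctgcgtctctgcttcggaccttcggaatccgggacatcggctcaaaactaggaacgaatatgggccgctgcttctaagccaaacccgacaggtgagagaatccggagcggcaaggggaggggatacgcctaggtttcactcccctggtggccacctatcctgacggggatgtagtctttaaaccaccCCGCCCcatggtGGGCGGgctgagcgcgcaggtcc
Tuba8: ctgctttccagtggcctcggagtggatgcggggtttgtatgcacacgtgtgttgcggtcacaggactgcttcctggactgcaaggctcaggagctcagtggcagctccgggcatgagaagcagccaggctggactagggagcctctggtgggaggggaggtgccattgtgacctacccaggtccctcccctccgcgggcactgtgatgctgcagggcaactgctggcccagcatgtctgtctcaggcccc
Tubb4b had 5 CCAAT boxes, 19, 59, 122, 188 and 221 bases before the start, and at least 5 were found in 0.213% of 32851 promoter windows of the same length. Tubb5 had 2, and Tuba1a and Tuba1c 1 each, where 33.85% of all windows had at least 1. GC boxes numbered 2 each in Tuba4a, Tuba1b and Tubb2a and 1 each in Tubb4b and Tuba1a, and 32.74% of all windows had one. TGACGTCA, the cAMP response element, was in Tubb2a alone of the 8 and in 1.55% of all windows. The heat shock element core GAANNTTC (6.69% of all windows) and the ER stress element, which contains a CCAAT box (0.11%), were in none of the 8, each searched on both strands. Tuba8 had no match to any of the 5 motifs, whereas Tuba1a, whose groups also overlapped, had a CCAAT box and a GC box. A match is a description of letters in this window.

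The other alpha and beta tubulin genes in the table were near the limit of detection. Tubb4a had 8, 7 and 5 counts in control libraries, against 13, 9 and 6 in knockout libraries, and Tubb2b had at most 8.12 in any library. Tubb1, the platelet isotype, Tubb3, the neuronal isotype, and Tuba3a, a testis isotype, had at most 5, 2 and 2 counts in a library. None of the 5 passed the low-count filter. Gamma tubulin, which nucleates microtubules, was measured through Tubg1 at 41.4 ± 5.02 CPM in control libraries, against 34.4 ± 4.93 in the knockouts (SD, n = 3), with a log2 fold change of -0.27 ± 0.15 (SE) and overlapping groups. Of 10 genes tested of the gamma-tubulin ring complex, none passed in edgeR's test, 5 had a negative fold change and none had an unadjusted p under 0.05. The same shares over all genes tested were 1.49%, 52.2% and 18.5%, so few or no calls among 10 genes say little.

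Related genes were then counted by role, from lists chosen with earlier results of these data known. The lists held genes that act on tubulin, 2 tested genes of the wider tubulin family, and 20 actin and keratin genes as a cytoskeleton outside microtubules. Over the 137 related genes tested, none had an edgeR adjusted p under 0.05, where 1.49% of all genes did. Of the 137, 17 had an unadjusted p under 0.05, where 18.5% of all genes did, and DESeq2 called 7, where it called 5.26% of all genes. The actin and keratin list held 4 of those 17 genes and 2 of those 7, Tmsb4x and Tmsb10. With upper-quartile scaling, no low-count filter and a filter of 1 CPM in 3 libraries, 2, 3 and 1 related genes were called, where 1.43%, 2.05% and 1.55% of all genes were. The limma fits to log2(FPKM + 1) and log2(FPKM + 0.1) called 1 each, where they called 0.904% and 1.04%, and the fit with length and GC trends removed called 3, where it called 2.36%. Related genes called were 3, 1 and 8 when control replicates 1, 2 and 3 were left out in turn, where 2.93%, 0.627% and 5.42% of all genes were, and 0 each for the knockout replicates, where 0.477%, 0.348% and 0.485% were. The median log2 fold change of the 137 genes was -0.020.

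Of 7 tubulin folding cofactors 5 had a negative fold change (median -0.16). Tbcb, which handles alpha tubulin on its way to the dimer, had 21.5 ± 4.38 CPM in control libraries, against 13.4 ± 0.62 in the knockouts (SD, n = 3), without overlap. Its log2 fold change was -0.68 ± 0.17 (SE), and its adjusted p was 0.0829 in edgeR, 0.0233 in DESeq2 and 0.0167 in edgeR without control replicate 3. Tbcd, which handles beta tubulin, had a log2 fold change of 0.28 ± 0.17 (SE; edgeR's adjusted p 0.411). The fitted signs of the cofactors thus differed, but none of their changes was called in edgeR's main fit. Of 16 subunits and helpers of chaperonin CCT and prefoldin 13 had a negative fold change (median -0.196), and 3 had an unadjusted p under 0.05. These were Pfdn4 (-0.76 ± 0.28, log2 and SE), Cct3 (-0.30 ± 0.13) and Pfdn1 (-0.42 ± 0.18). Over all genes tested, 52.2% had a negative fold change and 18.5% an unadjusted p under 0.05, a share near that of 3 in 16.

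Of 12 genes of tubulin mRNA decay (Ttc5, Scaper and the CCR4-NOT deadenylase) 2 had a negative fold change. Ttc5 itself had 4.05 ± 0.43 CPM in control libraries, against 3.16 ± 0.75 in the knockouts (SD, n = 3), with overlapping groups and a log2 fold change of -0.36 ± 0.22 (SE). Cnot6l, a catalytic subunit of the deadenylase, had 0.39 ± 0.15 (log2, SE). Of 16 tubulin modifying enzymes 9 had a negative fold change, and Ttll13, a polyglutamylase at under 1 CPM, had the smallest p of the list (0.91 ± 0.39, log2 and SE).

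Of 23 microtubule-associated and severing proteins 7 had a negative fold change. Mapre2, an end-binding protein of growing microtubules, had 12.8 ± 2.98 CPM in control libraries, against 22.2 ± 1.78 in the knockouts (SD, n = 3; adjusted p 0.0641 in edgeR and 0.00634 in DESeq2). Map1s, a microtubule-associated protein, had 9.54 ± 1.02 against 5.96 ± 0.80 CPM (SD, n = 3; adjusted p 0.0793 in edgeR and 0.0446 in DESeq2). Of 32 kinesin and dynein genes 15 had a negative fold change. Dynlt1b, a dynein light chain, had 14.02 ± 4.85 against 6.17 ± 0.66 CPM (SD, n = 3; adjusted p 0.0502 in edgeR and 0.000901 in DESeq2). Dynll2, another dynein light chain, had 64.0 ± 15.5 against 103 ± 9.47 CPM (SD, n = 3; adjusted p 0.103 in edgeR and 0.0176 in DESeq2).

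In the actin and keratin list 14 of 20 genes had a negative fold change (median -0.069). Tmsb4x, which binds actin monomers, had 121 ± 21.4 CPM in control libraries, against 68.6 ± 7.73 in the knockouts (SD, n = 3; adjusted p 0.0503 in edgeR and 0.000645 in DESeq2). Actb, a general actin gene, had a log2 fold change of -0.38 ± 0.16 (SE).

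**Figure D5:**
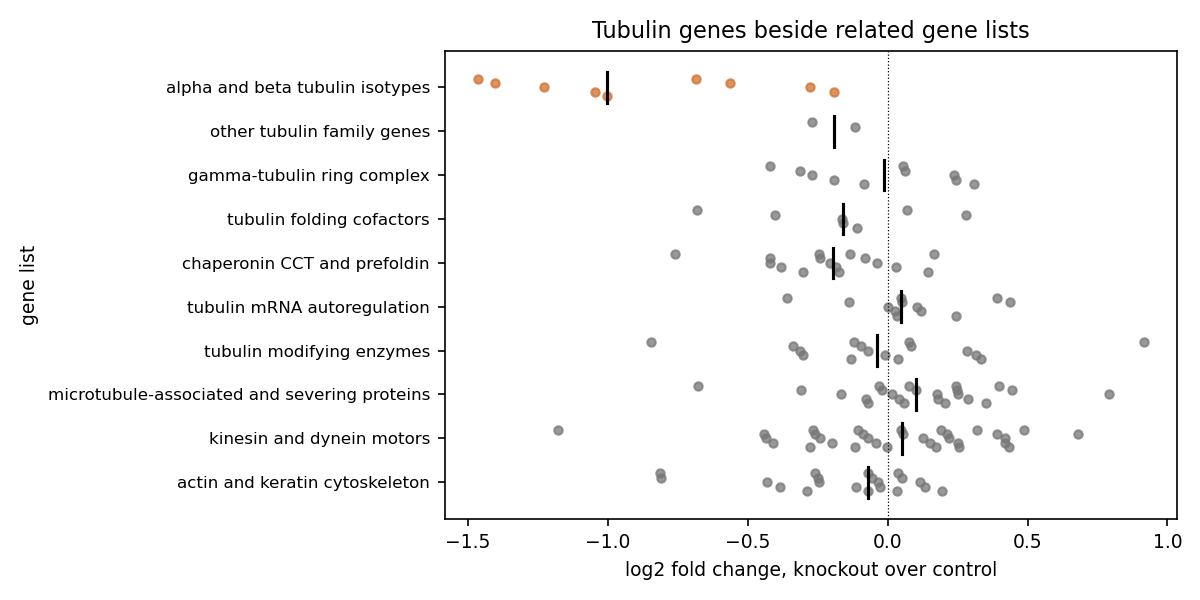
Log2 fold change, knockout over control, of each tested gene (points) in the 9 tubulin isotypes and in the lists of related genes, with a black line at each median. The tubulin median of -1.004 lies below the median of every related list plotted, the lowest of which is -0.196. The 9 genes were picked on this contrast and the lists with earlier results known, so this order is a description only.

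Markers of other cell types were measured beside the tubulin genes, since tubulin is made in every cell type of the liver. Summed endothelial markers were 201, 216 and 212 TPM in control libraries, against 175, 178 and 196 TPM in knockout libraries, and 1 of the 8 genes passed in edgeR's test, Lyve1, which was lower. Kupffer cell and macrophage markers were 190 to 338 TPM in control libraries, against 217 to 269 TPM in knockout libraries, with control replicate 1 the lowest of all. Of those 8 markers all had a negative fold change (median -0.26), 2 had an unadjusted p under 0.05, Marco (-0.89 ± 0.36, log2 and SE) and Cd68 (-0.40 ± 0.16), and none passed in edgeR's test. Stellate and fibroblast markers (139 to 193 against 133 to 166 TPM) and cholangiocyte markers (32.2 to 55.1 against 47.8 to 51.5 TPM) overlapped too. Of 6 tested T, NK and B cell markers all had a negative fold change (median -1.29), 4 had an unadjusted p under 0.05 and none passed in edgeR's test. No marker of these lists was at 0 in all libraries. Mitotic markers, which mark dividing cells, had a higher sum in every knockout library, at 6.72, 8.63 and 11.4 TPM in control libraries, against 12.5, 13.7 and 13.0 TPM in the knockouts. Most of that difference lay in Cenpa, a centromere histone (mean of 2.17 TPM in controls and 5.30 in knockouts). Of 13 mitotic markers tested none passed in edgeR's test, 2 had an unadjusted p under 0.05, and 2, Aurka and Ccna2, had a negative fold change. Over all genes tested, 18.5% had an unadjusted p under 0.05 in edgeR's test, 1.49% passed and 52.2% had a negative fold change. The part of these cell types in the tubulin values was not tested.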

How the data were processed

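Mouse liver RNA of 3 knockout and 3 control samples was sequenced in bulk. The authors deposited estimated counts, FPKM and TPM per gene and library, per the file headers, with a log2 fold change, p-value and q-value from their own DESeq2 comparison. HISAT2, Bowtie2, RSEM 1.3.1 and GRCm38 are named, per the submitters' processing notes; the strand setting is not given in the sources used here. Column names gave the group and number of each sample, which call the controls wild type.

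Estimated counts were rounded to whole numbers. Genes were kept with edgeR's filterByExpr (12173 of 16140), scaled with TMM factors and tested in R 4.3.3 with edgeR 4.0.16 (quasi-likelihood F test), genotype being the only term, with Benjamini-Hochberg adjustment over all genes at 0.05. The fit was checked on simulated data. Standard errors came from the F statistic, and log2 CPM used a prior count of 2. Reads carried no stated molecular identifiers, so counts are not of independent molecules. Libraries of a group differed by more than sampling noise (chi-square at least 18.9 per degree of freedom).

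The members, lists and tests were chosen with earlier results of these data known. Named were the 9 members and, of each related list, the called genes or up to 3 with the smallest p, and Ttc5, chosen after its values were seen; for likeness, the 3 genes with the highest r. Alternatives were other scalings and filters, DESeq2 1.42.0, limma 3.58.1 on voom or log2 FPKM values, the replicate number as a block and each library left out. Removal of length and GC trends was chosen after seeing the data.

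Coding sequences came from the longest GENCODE M21 transcript with a complete coding sequence, and promoters from RefSeq (GRCm38.p6).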

Additional observations from a re-analysis of the deposited data

How the results depend on the processing

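Whether the replicate numbers pair the libraries is not stated. Deviations from the group means of same-numbered controls and knockouts correlated at -0.16, -0.079 and -0.076 across genes. These values cannot exclude a pairing, since the libraries also differed in their length trends. A replicate block in the fit left 3 called of the 9 tubulin genes in place of 5: Tubb5 (adjusted p = 0.0578 in edgeR) and Tubb2a (0.0898) lost their call. Leaving out each library gave 2 to 6 called members. Related genes called were 0 in the edgeR fit and with the block, 2 with upper-quartile scaling, 3 without a low-count filter, 1 with the filter of 1 CPM in 3 libraries, 7 with DESeq2, 1 each with limma on log2(FPKM + 1) and on log2(FPKM + 0.1), 3 with the length and GC trend removed, and 0 to 8 with 1 library left out; the cause was not tested. The alpha sum of the knockouts was 42.8% to 52.3% and the beta sum 41.7% to 47.0% of the control mean with 1 library left out. No fold change of the 9 genes changed sign under any alternative run. Tuba1b was called without control replicate 1 (adjusted p = 0.0109 in edgeR) and by DESeq2 (0.00646). Tubb6, Tuba1a and Tuba8 had the fewest counts, 53 to 144 in a library; whether depth limits their calls was not tested.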

Other observations

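Other genes followed single tubulin genes closely over the 6 libraries. By Pearson's r of log2 CPM, the genes most like Tubb4b were Dnttip2 (0.9964), Clec4a3 (0.9956) and Il18 (0.9944), and those most like Tuba4a were Serpina11 (0.9965), Trp53 (0.9955) and Cwc22 (0.9954). For Tuba1c they were Recql4 (0.9939), Xbp1 (0.9905) and Chchd6 (0.9890), and for Tuba1b Tcf25 (0.9970), Zfp518a (0.9912) and Engase (0.9902). For Tubb5 they were Ptpn6 (0.9974), Bin2 (0.9933) and Krt8 (0.9918), and for Tubb2a Mrm3 (0.9988), Fubp1 (0.9951) and Mitd1 (0.9946). Tubb6 was most like the folding cofactor gene Tbcb (0.9935), then Zgpat (0.9926) and Olig1 (0.9920). Tuba1a was most like Ggt5 (0.9879), Crip1 (0.9769) and Hk3 (0.9763), and Tuba8 most like Ercc4 (0.9900), Gm31606 (0.9872) and Fam193a (0.9813). These are the highest of 12173 genes over 6 libraries that share depth and group, and are given as descriptions. By deviations from the group means, the 3 highest r of each member lay between 0.9922 and 0.9997, and of the genes above only Mitd1 (Tubb2a, 0.9954) and Ercc4 (Tuba8, 0.9922) were among them.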
